A study of Mus musculus with 38 samples.

Results

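Whole back skin of SRSF2 knockout mice was compared after 12 days and after 4 days of topical 4-hydroxytamoxifen. The samples were chosen by their labelled genotype and time in the deposited whole-skin knockout table: 3 libraries at each time, 6 of the 38 samples of the series. Genes whose mean over the 12 columns of that table reached 10 were kept, 19450 of the 49585 listed. The comparison asks how the transcripts of knockout skin differ between an early and a later time of the same treatment.

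SRSF2 is an SR protein, one of a family that binds exons in pre-mRNA and helps the spliceosome choose splice sites. The epidermis renews itself from basal keratinocytes, which express keratins 5 and 14, stop dividing, switch to keratins 1 and 10 and end as cornified cells held together by cross-linked envelope proteins and lipids. Wounded or inflamed epidermis makes another set of genes, among them keratins 6 and 16, small proline-rich proteins, stefins, S100 proteins and chemokines, while the dermis below holds macrophages, fibroblasts, vessels and fat.

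All 6 mice were Cre positive for Krt14-CreER, a tamoxifen-activated recombinase made in cells that express keratin 14, and carried the SRSF2 KO allele. The recombinase is made only in keratin 14 cells, but RNA was taken from all cells of the skin. Tamoxifen was applied every other day, RNA was extracted with Trizol, and the library kit was TruSeq Stranded Total RNA Gold. The mice also carried a tdTomato reporter: the 4-day mice were homozygous, wild type and homozygous (replicates 1 to 3), and all 3 mice at 12 days were heterozygous, so reporter alleles and time cannot be told apart. The 3 controls of the set had the SRSF2 KO allele without Cre and were treated for 12, 12 and 10 days. 3 further knockout mice were treated for 10 days. No control was labelled with 4 days. The labels give neither age nor sex, and no batch. The labels call the samples biological replicates, and p values set a difference against the spread between animals within the groups of all 12 libraries.

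Levels are given in steps. Every value of a library was a whole multiple of that library's smallest positive value, and 1 step is that smallest value. Undetected genes sat at 1 step. The libraries held 28.5 to 37.5 M steps in all (M for mega), with 31.7, 28.9 and 32.1 M at 4 days and 28.8, 29.0 and 30.5 M at 12 days. Replicates are always listed in the order 1, 2, 3. Markers of skin were high in all 12 libraries: Krt14 ranged from 43168 to 141975 steps, Krt10 from 22958 to 83657 steps and Col1a1 from 114827 to 1221484 steps. Fewer cells of a type and less RNA per cell cannot be told apart in whole skin, and this holds for each cell type list below.

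Srsf2 itself (ENSMUSG00000034120.18) stood at 2450, 2790 and 2671 steps at 4 days and at 2303, 2559 and 2382 steps at 12 days. Both ranges lay below the controls (2885, 2879 and 2996 steps), while the 10-day libraries held 2996, 3084 and 3687 steps. The 2 times overlapped, and the difference did not pass limma's test (log2 -0.13, SE 0.10, adjusted p = 0.545). On the values as deposited the difference had the opposite sign (log2 0.038).

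One library stood apart from the rest. In 12-day replicate 3 the Y-linked genes Kdm5d, Eif2s3y, Uty and Ddx3y stood at 4293 to 8764 steps, against 15 to 82 steps in the other 11 libraries. Xist, the transcript that silences an X chromosome in female cells, was at 1 step there and at 94 to 1876 steps elsewhere. The same library parted from its group at Trim12a, a member of the TRIM family related to Trim5. Trim12a was at 1 step in all 3 libraries at 4 days and at 242, 190 and 4 steps at 12 days. Controls held 252, 293 and 195 steps and the 10-day libraries 181, 158 and 136 steps. The 4-day group thus lay below every control and every 10-day library, and here time cannot be told apart from other differences between the mice. Without 12-day replicate 3, Trim12a passed the test (log2 6.75, adjusted p = 5.85e-07), and so did Trim5 (4, 4 and 4 steps against 91 and 64; adjusted p = 0.000675). The third gene added was the predicted gene Gm3608 (34, 50 and 99 steps against 535 and 442; adjusted p = 0.0231). With all 6 libraries none of them passed. List results without that library are given where a printed count or median moved by over 1.5 times, where a median turned sign or where a member separated in a direction first given as empty, and for the main lists.

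Few genes passed the test. Transcripts of resident macrophages and of the dermis fell from 4 to 12 days, among them Cd5l, Lyve1, Fcna, Ccl6 and Col6a6. Transcripts of stressed or inflamed epidermis rose, among them the stefin Stfa1, the chemokine Ccl20 and the protease inhibitor Csta1. Other rising transcripts were lower in every control than in every 4-day library, among them 4930428N03Rik, at 1 step in all 3 controls, and Dnah17, at 45 to 56 steps there. In all, 28 of 19450 genes were past an adjusted p of 0.05 (0.144%): 21 rose (0.108%) and 7 fell (0.036%). All 28 had 4-day and 12-day libraries that did not overlap. The 21 to 7 split became 24 to 3 on the values as deposited, which shift the median of all genes to 0.15, and 52 to 9 with equal library totals.

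Many more genes were ordered by time without passing. Among all genes, 1737 (8.93%) were higher in every 12-day library than in every 4-day library, and 1857 (9.55%) were lower in every one. These 2 shares are the background for each list below. Without 12-day replicate 3, which leaves fewer libraries to overlap, they were 13.6% and 14.05%. The median log2 change of all genes was -0.01, and 96.2% of genes lay within 1 log2 unit of 0. There were fewer calls whenever a library was left out, which also leaves fewer animals to test. Without 4-day replicate 1 3 genes were called, 11 without 4-day replicate 2 and 7 without 4-day replicate 3. Without the 12-day replicates 1, 2 and 3 in turn there were 26, 4 and 8 calls. Of the 28 genes, 3 (Cd5l, Dnah17 and 4930428N03Rik) passed in all 6 of these fits, 25 lost their call in at least 1 and 8 lost it in all 6; the highest adjusted p among them was 0.179.

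**Figure D1:**
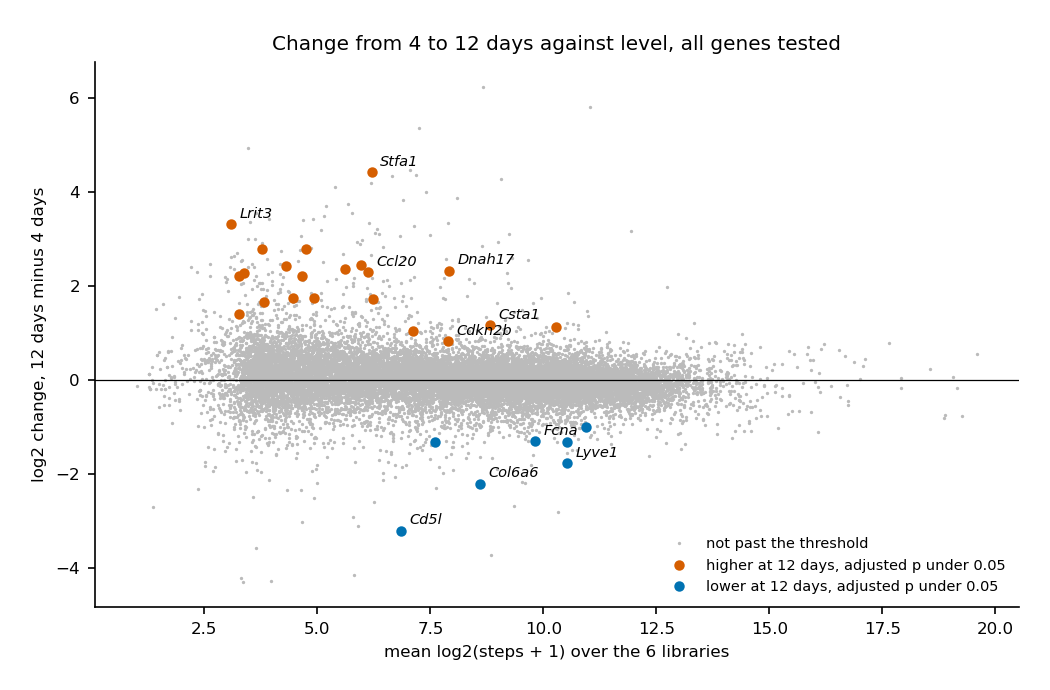
Log2 change from 4 to 12 days (y axis) against the mean log2(steps + 1) over the 6 libraries (x axis), 1 point per gene for the 19450 genes tested; orange points are the 21 genes that rose and blue points the 7 that fell. Stfa1 has the largest rise among the coloured points (log2 4.43) and Cd5l the largest fall (log2 -3.20), and many grey points reach similar changes without passing the test.

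Of the genes past the test, 4 are shown with the sequence before their annotated start, because a pair of them are neighbours that rose together and the others mark the rising and the falling set. The windows are from the RefSeq promoter table on GRCm38.p6, 5′ to 3′ on the gene's strand, and end at the base before the gene's start in the GENCODE M21 annotation. In the Stfa1 and Csta1 windows the capitals mark the longest run shared by both, 17 bases.
Stfa1 (chr16:36276898-36276950, plus strand): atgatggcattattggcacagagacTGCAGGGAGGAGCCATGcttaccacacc
Csta1 (chr16:36131242-36131439, minus strand): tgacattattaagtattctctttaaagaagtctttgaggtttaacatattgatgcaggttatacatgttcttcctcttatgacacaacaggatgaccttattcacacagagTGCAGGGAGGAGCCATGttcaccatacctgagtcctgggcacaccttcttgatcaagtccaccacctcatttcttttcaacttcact
In the Ccl20 window the capitals mark a match to the NF-kB type motif GGGNNNTCC, searched on both strands, and in the Cd5l window a match to the PU.1 type motif GAGGAAG, searched likewise. NF-kB is a factor of inflammatory signalling and PU.1 a factor of macrophages.
Ccl20 (chr1:83116516-83116765, plus strand): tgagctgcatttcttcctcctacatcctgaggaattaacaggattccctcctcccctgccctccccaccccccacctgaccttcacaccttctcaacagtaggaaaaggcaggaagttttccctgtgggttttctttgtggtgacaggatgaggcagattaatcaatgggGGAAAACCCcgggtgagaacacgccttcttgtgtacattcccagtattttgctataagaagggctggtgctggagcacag
Cd5l (chr3:87357631-87357880, plus strand): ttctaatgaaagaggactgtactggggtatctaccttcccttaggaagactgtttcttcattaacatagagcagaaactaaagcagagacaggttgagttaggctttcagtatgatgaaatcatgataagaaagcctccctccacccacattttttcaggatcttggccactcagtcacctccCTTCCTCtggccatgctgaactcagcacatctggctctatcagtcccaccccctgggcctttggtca
Both marked matches read on the opposite strand. Of 32851 windows of 250 bases in the table, 15.2% hold the NF-kB type motif and 10.6% the PU.1 type motif. The Ccl20 and Csta1 windows also hold 1 PU.1 type match each, and no motif overlaps another. A match is a description of letters, not of a bound site.

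Stefins, small inhibitors of cysteine proteases, were higher at 12 days. Stfa1 (chromosome 16, 36276951 to 36285373) stood at 11, 13 and 23 steps at 4 days and at 226, 317 and 555 steps at 12 days, a 21.5-fold rise (log2 4.43, SE 0.58, adjusted p = 0.0183). Every 12-day library was far above every 4-day library and above the controls (9, 3 and 6 steps), and the 10-day libraries held 36, 92 and 16 steps, the last within the 4-day range. Its neighbour Csta1, also a cysteine protease inhibitor, rose from 296, 319 and 286 to 750, 560 and 734 steps (2.25-fold, log2 1.17, SE 0.16, adjusted p = 0.0183). Csta1 at 4 days was below the controls (524, 398 and 444 steps), and at 12 days it was above them. Each of these 2 calls held in 1 of the 6 fits that left out a library; without 12-day replicate 3 the adjusted p was 0.102 for Stfa1 and 0.112 for Csta1. Stfa2 (3, 11 and 27 steps against 59, 71 and 105) and Stfa3 (56, 249 and 228 steps against 813, 963 and 1544) had the same order of libraries without passing (adjusted p = 0.172 and 0.0982). The stefin A genes are near copies of each other, so how the counting shared reads among them is uncertain.

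The list of wound and stress keratinocyte genes showed the same order. Of 48 measured members, 29 (60.4%) were higher in every 12-day library and 1, the urokinase gene Plau, was lower in every one; the median log2 change was 1.09, against -0.01 for all genes. Stfa1 and Ccl20 were the 2 members past the test. Without 12-day replicate 3 the median was 0.88 and the same counts were 29 and 1. The list score, the mean log2(steps + 1) over the members, was 6.33 to 7.21 at 4 days and 7.85 to 9.07 at 12 days, against 5.84 to 6.81 in controls and 7.23 to 9.02 at 10 days.

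Alarmins, proteins released by stressed epidermis and also made by neutrophils, were among the members with the largest differences. S100a9 stood at 12, 29 and 56 steps at 4 days and at 565, 666 and 624 steps at 12 days (log2 4.46, adjusted p = 0.0674). S100a8 stood at 5, 18 and 43 steps at 4 days and at 238, 336 and 382 steps at 12 days (log2 4.20, adjusted p = 0.0738). Both had no overlap between times but neither passed the test. Of the 7 measured markers on the neutrophil list, 3 were higher in every 12-day library: S100a8, S100a9 and the neutrophil chemokine receptor Cxcr2 (38, 37 and 58 steps against 155, 129 and 362). The others were not separated, including Csf3r (log2 -0.31) and Mpo (39, 9 and 21 steps against 23, 20 and 61). Only 7 of the 17 listed markers reached the mean of 10. The neutrophil list score was 5.65 to 6.48 at 4 days and 7.37 to 8.02 at 12 days. S100a8 and S100a9 are among its 7 members, so the score is not a measure apart from the alarmin values. The part of neutrophils in those values was not tested.

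Keratins of activated epidermis varied strongly within each time. Krt6b was at 98, 196 and 1151 steps at 4 days and at 5247, 11774 and 63018 steps at 12 days (log2 5.80, SE 1.46, adjusted p = 0.123). Krt16 was at 826, 1050 and 2591 steps at 4 days and at 4498, 10333 and 35745 steps at 12 days (log2 3.18, SE 0.94, adjusted p = 0.163). For both, every 12-day library was above every 4-day library, but replicate 3 was the highest at both times and the spread within a time was wide. Krt6a (1679, 4224 and 5763 steps against 4470, 12918 and 43862) and Krt17 (11557, 19300 and 15724 steps against 19089, 31614 and 45322) overlapped between the times. Controls held 949, 305 and 1127 steps of Krt16 and 5424, 3543 and 10197 steps of Krt6a. The controls of Krt17 (28896, 27611 and 40294 steps) lay above every 4-day library and within the 12-day range.

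Serpinb3b and Serpinb3a, serine protease inhibitors of the clade B family, were also higher in every 12-day library. Serpinb3b was at 243, 235 and 423 steps at 4 days and at 1599, 766 and 1480 steps at 12 days, a 4.21-fold difference that just missed the threshold (log2 2.07, SE 0.36, adjusted p = 0.056). Serpinb3a was at 18, 7 and 26 steps at 4 days and at 203, 168 and 189 steps at 12 days (11.7-fold, adjusted p = 0.0658). Neither gene showed such levels at 10 days, where Serpinb3b was at 202, 83 and 125 steps and Serpinb3a at 26, 80 and 8 steps. The protease inhibitor Slpi (15, 28 and 52 steps against 95, 190 and 340), the chitinase-like gene Chil1 (84, 180 and 414 against 846, 1173 and 2919) and the cytokine Il24 (2, 2 and 4 against 9, 38 and 124) were also separated by time and not called.

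The beta-defensin Defb1, an antimicrobial peptide of epithelia, rose from 93, 106 and 89 to 222, 189 and 184 steps (2.05-fold, log2 1.04, SE 0.14, adjusted p = 0.0183). At 4 days it was below every control (164, 207 and 187 steps), at 12 days it was about as in controls, and at 10 days it was highest (409, 414 and 383 steps). The call held in 2 of the 6 fits that left out a library, and the adjusted p without 12-day replicate 3 was 0.0647.

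**Figure D2:**
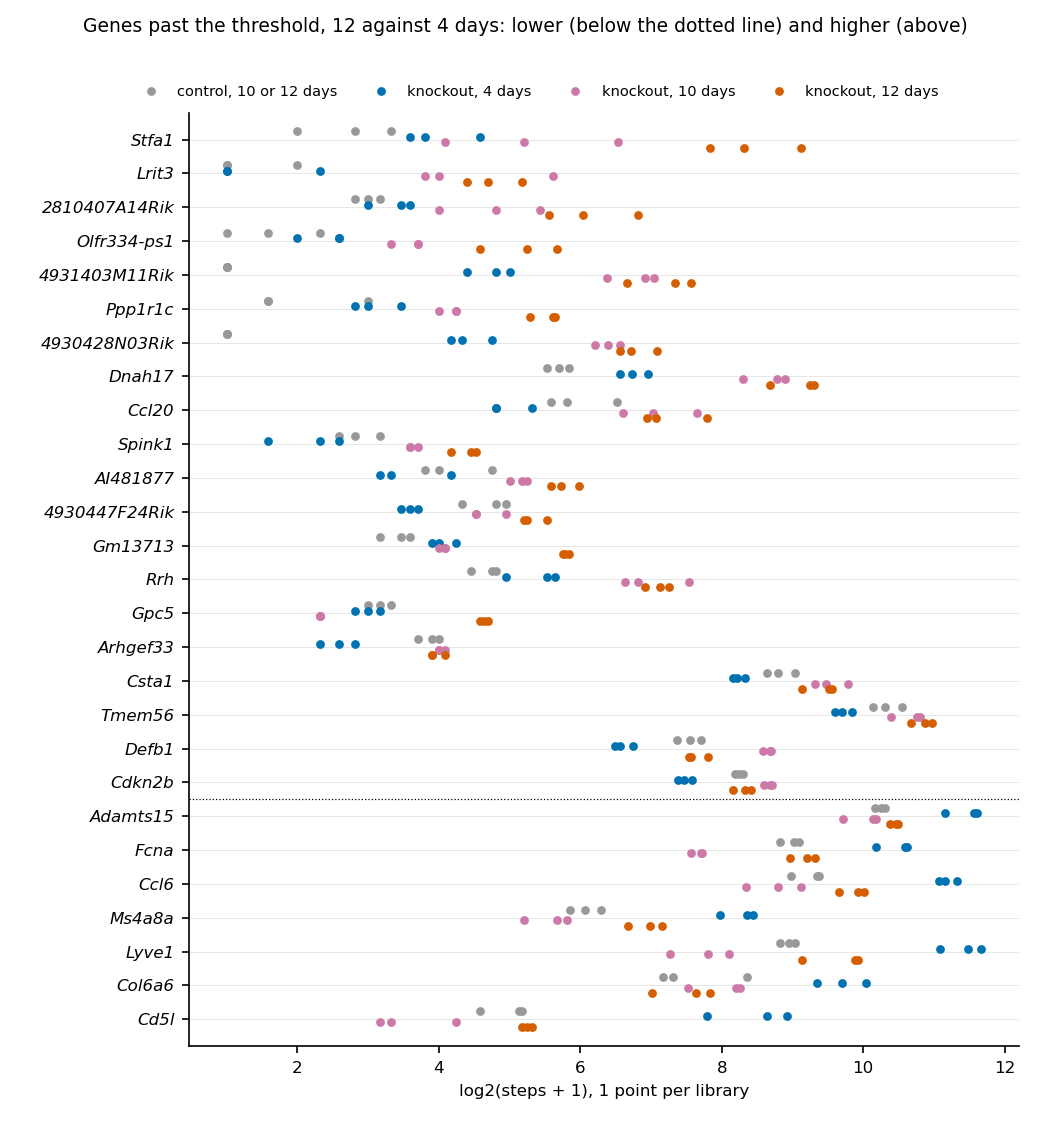
Level of 27 of the 28 genes past the threshold as log2(steps + 1) (x axis), 1 point per library, with controls in grey and knockout skin at 4 days (blue), 10 days (pink) and 12 days (orange). Genes below the dotted line fell and those above it rose; for 4930428N03Rik and 4931403M11Rik the 3 controls lie on 1 point, at 1 step each, and for Cd5l the 4-day libraries (220 to 483 steps) stand apart from the other 3 groups.

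Cornified envelope genes split by family. Of 44 measured members of the list, 21 (47.7%) were higher in every 12-day library, none was lower in every one, and none passed the test; the median log2 change was 0.75 (0.53 without 12-day replicate 3, with the same counts, 1.61 without 4-day replicate 2 and 1.95 without 12-day replicate 1). The small proline-rich proteins of the Sprr2 family, cross-linked into the envelope under stress, made up 10 of these, all 10 measured, with log2 changes of 2.03 to 3.83. The late cornified envelope genes of the Lce3 family, which respond to barrier damage, made up 6 more, all 6 measured (log2 2.0 to 3.41). Of the 14 measured Lce1 genes, the constitutive relatives of Lce3, 2 were higher in every 12-day library, and their changes ran from -0.54 to 0.70. This family split was chosen after the values were seen, and near copies within each family share reads to an unknown degree.

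Single members show the low starting levels. Sprr2d was at 23, 36 and 35 steps at 4 days and at 257, 565 and 629 steps at 12 days (log2 3.83, adjusted p = 0.104). Sprr4 was at 93, 223 and 182 steps at 4 days and at 497, 650 and 1029 steps at 12 days (log2 2.15, adjusted p = 0.069), the latter about the level of controls (515, 990 and 1240 steps). Repetin, Rptn, went from 134, 469 and 585 to 1286, 1621 and 3595 steps without passing (adjusted p = 0.133). The major envelope proteins of normal skin overlapped: Lor, loricrin, was at 14328, 8003 and 5662 steps at 4 days and at 8798, 10115 and 11146 steps at 12 days, and Flg, filaggrin, at 5844, 10672 and 10649 against 8071, 10319 and 22039 steps.

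Genes of the epidermal lipid barrier and of desquamation, the shedding of cornified cells, were also ordered by time. Of 36 measured members, 16 (44.4%) were higher in every 12-day library and none was lower; none passed, and the median log2 change was 0.48 (0.40 without 12-day replicate 3, with 1 lower). The lipid elongase Elovl7 came closest, at 826, 1426 and 1367 steps against 2579, 2500 and 2799 steps (2.24-fold, log2 1.16, adjusted p = 0.056). Elovl4, which makes the very long fatty acids of skin ceramides, was at 10228, 8919 and 10916 steps against 17551, 18041 and 15865 steps (log2 0.78, adjusted p = 0.0633), with controls at 9232, 10809 and 12641 steps. The protease inhibitors Cst6 (6022, 7648 and 6866 steps against 14422, 13531 and 20093; adjusted p = 0.0668) and Spink5 (5343, 6873 and 5068 against 13846, 8913 and 11568; adjusted p = 0.0762) also had no overlap. Controls held 11730, 21141 and 20608 steps of Cst6 and 9618, 8702 and 7581 steps of Spink5. For both genes every control lay above every 4-day library, and the 12-day libraries of Cst6 lay within the control range. The list score was 9.99 to 10.2 at 4 days, 10.6 to 11.1 at 12 days and 10.2 to 10.5 in controls. Of the 9 measured kallikrein proteases from Klk5 to Klk13, which cut the bonds between cornified cells, 7 were higher in every 12-day library, led by Klk6 (143, 426 and 513 steps against 521, 1023 and 3403).

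Fewer genes of the layers below were separated by time. Of 22 basal keratinocyte genes 3 (13.6%) and of 25 suprabasal genes 7 (28.0%) were higher in every 12-day library, with median log2 changes of 0.24 and 0.29 (0.10 and 0.20 without 4-day replicate 3, and 0.45 for the suprabasal list without 12-day replicate 1). None was lower in every one, and without 12-day replicate 3 1 suprabasal gene was. The basal score was 12.197 to 12.545 at 4 days, 12.549 to 12.746 at 12 days and 12.623 to 13.013 in controls. The suprabasal score was 12.129 to 12.476 at 4 days, 12.391 to 12.78 at 12 days and 12.556 to 12.828 in controls. Krt14 was at 44571, 51993 and 43168 steps at 4 days and at 56521, 78716 and 97925 steps at 12 days (log2 0.71, adjusted p = 0.218). Its controls (65098, 57445 and 62459 steps) lay above every 4-day library and within the 12-day range. Krt5 overlapped between the times (55739, 60667 and 44314 steps against 59523, 70859 and 85857), as did Krt1 (29333, 29522 and 26293 steps against 27979, 21466 and 39854) and Krt10 (83403, 69360 and 51534 steps against 83657, 54569 and 59889). The desmosome gene Dsc1 had the smallest adjusted p of the suprabasal list (0.075; 4268, 5494 and 4348 steps against 6751, 6933 and 7947). Its controls held 7110, 5867 and 6468 steps, above every 4-day library.

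Chemokines and interleukins changed in both directions. Ccl20, which attracts dendritic cells and T cells through its receptor Ccr6, rose from 27, 39 and 27 to 122, 134 and 220 steps (4.89-fold, log2 2.29, SE 0.34, adjusted p = 0.0234). The 4-day libraries lay below the controls (91, 47 and 55 steps) and the 12-day libraries above them, while the 10-day libraries stood at 199, 129 and 96 steps. The call held in 1 of the 6 fits that left out a library; without 12-day replicate 3 the adjusted p was 0.12. Ccl6, a chemokine of macrophages, fell from 2558, 2273 and 2149 to 974, 1027 and 803 steps (2.49-fold, log2 -1.32, SE 0.19, adjusted p = 0.0219). Its 12-day libraries still lay above the controls (660, 653 and 505 steps), and its call was lost in each of the 6 fits (adjusted p 0.0518 to 0.12).

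Of the 64 measured chemokines, interleukins and receptors, 16 (25.0%) were higher in every 12-day library and 7 (10.9%) lower in every one, with a median log2 change of 0.17 (up to 0.31, without 4-day replicate 1). Ccl17, a ligand of Ccr4, a chemokine receptor of T cells, was at 26, 22 and 29 steps at 4 days and at 100, 87 and 193 steps at 12 days (log2 2.18, adjusted p = 0.0668). Ccl22, which binds the same receptor, was at 178, 171 and 163 steps at 4 days and at 455, 562 and 800 steps at 12 days (log2 1.78, adjusted p = 0.0811). Il1r2, the decoy receptor of interleukin 1, was lower at 12 days (2350, 1752 and 2705 steps against 1468, 1058 and 973; adjusted p = 0.0731).

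Of 21 T cell genes, 5 (23.8%) were higher in every 12-day library and none was lower. The list's median log2 change of -0.09 turned to 0.11 without 12-day replicate 3 and to 0.073 on the values as deposited. Those 5 included genes of regulatory and activated T cells: Il2ra (68, 59 and 66 steps against 143, 130 and 118), Ctla4 (53, 46 and 23 against 99, 93 and 76) and Foxp3 (50, 49 and 23 against 70, 121 and 83). Of the 21, 13 had a negative log2 change, and the T cell score overlapped between the times (6.38 to 6.95 at 4 days, 6.43 to 7.04 at 12 days). None of the list passed the test.

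In the list of BMP, FGF and EGF ligands and receptors, 8 of 39 members (20.5%) were higher in every 12-day library and 2 (5.13%) lower in every one, and none passed. Epgn, epigen, a ligand of the EGF receptor, was at 28, 65 and 61 steps at 4 days and at 206, 260 and 492 steps at 12 days (log2 2.60, adjusted p = 0.0911). Fgfbp1, a carrier of fibroblast growth factors, was at 805, 920 and 767 steps against 1585, 1309 and 1358 steps (log2 0.77, adjusted p = 0.056), and Grem1, a BMP antagonist, at 522, 539 and 508 against 1009, 776 and 792 steps (adjusted p = 0.0946).

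Macrophage genes were lower at 12 days than at 4 days, and several passed the test. Cd5l, a secreted scavenger protein of resident macrophages, fell from 220, 396 and 483 to 37, 39 and 35 steps (9.19-fold, log2 -3.20, SE 0.34, adjusted p = 0.00736). At 12 days Cd5l was close to the controls (34, 23 and 35 steps), and at 10 days it was lower still (18, 9 and 8 steps). The call held in all 6 fits that left out a library (adjusted p 0.0129 to 0.0484). Fcna, the macrophage lectin ficolin A, fell from 1574, 1155 and 1539 to 638, 588 and 501 steps (2.46-fold, log2 -1.30, SE 0.14, adjusted p = 0.00849), which was near the controls (453, 547 and 521 steps). The Fcna call held in 4 of the 6 fits, and without 12-day replicate 3 its adjusted p was 0.0375.

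Lyve1, a hyaluronan receptor of lymphatic vessels and of perivascular macrophages, fell from 2872, 2182 and 3240 to 942, 968 and 562 steps (3.41-fold, log2 -1.77, SE 0.25, adjusted p = 0.0204). It remained above the controls at 12 days (454, 494 and 524 steps) and was below them at 10 days (223, 274 and 153 steps). The Lyve1 call held in 2 of the 6 fits, and without 12-day replicate 3 the adjusted p was 0.0942. Ms4a8a, a membrane protein described in alternatively activated macrophages, fell from 328, 250 and 347 to 141, 126 and 101 steps (2.50-fold, log2 -1.32, SE 0.21, adjusted p = 0.0444) and passed in none of the 6 fits. All 7 genes that fell had every 4-day library above every control, a comparison that shares the 4-day libraries and was not tested here. High 4-day values also favour a call as falling, so this order was favoured in advance. The share over all genes was not counted, and no conclusion is drawn from the order.

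Among 38 markers of macrophages and dendritic cells, 24 (63.2%) were lower in every 12-day library and none was higher in every one. Cd5l, Lyve1 and Ccl6 were the 3 that passed, and the median log2 change was -0.83 (-0.81 without 12-day replicate 3, with 26 lower). The list score was 10.9 to 11.6 at 4 days, 10.4 to 10.6 at 12 days, 9.55 to 9.96 in controls and 9.06 to 9.75 at 10 days. Timd4, a receptor for dying cells on resident macrophages, was at 508, 432 and 757 steps at 4 days and at 240, 192 and 114 steps at 12 days (log2 -1.66, adjusted p = 0.0626). The general macrophage gene Adgre1 was at 9555, 5620 and 11144 steps against 4066, 4091 and 4090 steps (log2 -1.05, adjusted p = 0.116). The lysozyme gene Lyz2 was at 33906, 18689 and 34894 steps against 15405, 11496 and 12905 (adjusted p = 0.123), and the monocyte receptor Ccr2 at 2887, 1536 and 2349 against 1396, 908 and 1119 (adjusted p = 0.133).

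Differences were unequal across the macrophage list. All 3 genes of the complement protein C1q were lower in every 12-day library, with log2 changes of -0.91 to -0.80. The colony stimulating factor receptor Csf1r overlapped (31555, 16780 and 29721 steps against 16721, 16360 and 17530), as did the mannose receptor Mrc1 (27448, 21610 and 38238 against 24584, 15578 and 16487). The dendritic cell genes Itgax (log2 0.38) and Cd209a (log2 0.38) were on the other side of 0. Of 14 genes of Langerhans cells and MHC class II, 2 (14.3%) were higher in every 12-day library and none was lower in every one. These were the Langerhans cell lectin Cd207 (444, 349 and 280 steps against 620, 445 and 454) and Epcam, which keratinocytes also express. Of the 14, 9 had a negative log2 change. The median of -0.16 turned to 0.079 without 4-day replicate 1 and to 0.0085 on the values as deposited.

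**Figure D3:**
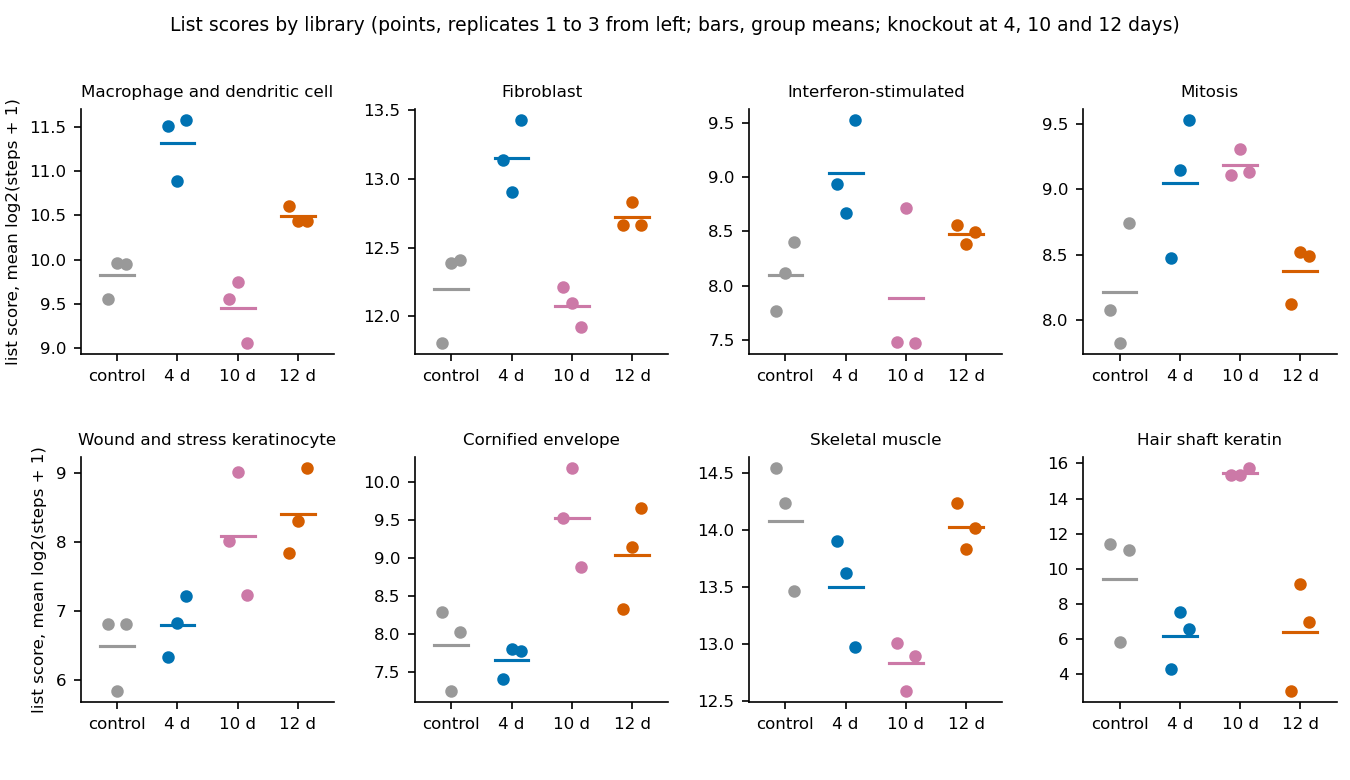
List score, the mean log2(steps + 1) over the measured members (y axis), for 8 lists in controls (grey) and in knockout skin at 4 days (blue), 10 days (pink) and 12 days (orange), with 1 point per library and a bar at the group mean. The macrophage score is 10.9 to 11.6 at 4 days and 10.4 to 10.6 at 12 days, the wound score 6.33 to 7.21 and 7.85 to 9.07, and the hair shaft score overlaps between these times and is above 15 in all 3 libraries at 10 days.

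Interferon-stimulated genes, which restrict viruses and mark interferon signalling, were mostly lower at 12 days. Of 50 measured, 18 (36%) were lower in every 12-day library, none was higher in every one, and none passed; the median log2 change was -0.43 (-0.47 without 12-day replicate 3, with 1 higher, and -0.27 without 4-day replicate 3). Ifi27l2a came closest, at 1303, 1385 and 2164 steps against 222, 481 and 393 steps (4.52-fold, log2 -2.18, adjusted p = 0.056). Rsad2, the antiviral enzyme viperin, was at 346, 303 and 694 steps against 169, 140 and 154 steps (log2 -1.43, adjusted p = 0.129), and Oasl1 at 382, 347 and 528 against 113, 167 and 191 steps (adjusted p = 0.12). Of the 10 measured Oas and Oasl genes, 6 were lower in every 12-day library. The macrophage score was lower at 12 days too, and its part in these values was not tested.

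Genes of the dermal matrix were lower as well, with 2 called. Col6a6, a chain of collagen VI, fell from 832, 1051 and 650 to 128, 226 and 198 steps (4.61-fold, log2 -2.20, SE 0.34, adjusted p = 0.0323), to the level of controls (157, 328 and 143 steps). Its call was lost in each of the 6 fits that left out a library, with an adjusted p of up to 0.12. Adamts15, a protease that cuts proteoglycans, fell from 3033, 2281 and 3120 to 1433, 1412 and 1329 steps (2.0-fold, log2 -1.0, SE 0.15, adjusted p = 0.0234), just above the controls (1214, 1146 and 1269 steps). The Adamts15 call held in 1 of the 6 fits, and without 12-day replicate 3 the adjusted p was 0.12.

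Of 32 measured fibroblast markers, 12 (37.5%) were lower in every 12-day library and 1 (3.13%) was higher, with a median log2 change of -0.52 (-0.36 without 12-day replicate 3, with 16 lower and 2 higher). Fn1, fibronectin, was at 49010, 28195 and 34141 steps at 4 days and at 19879, 18324 and 13550 steps at 12 days (log2 -1.09, adjusted p = 0.0834). The microfibril gene Mfap4 (1471, 2024 and 1673 steps against 815, 1263 and 688) and the crosslinking enzyme Loxl1 (6170, 3553 and 6117 against 3278, 3330 and 2618) were also lower in every library. The main fibrillar collagen chain Col1a1 overlapped (799043, 579377 and 1221484 steps against 274723, 529222 and 788018; adjusted p = 0.43). The fibroblast score was 12.9 to 13.4 at 4 days and 12.7 to 12.8 at 12 days, against 11.8 to 12.4 in controls.

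Of 42 measured collagen genes, 13 (31.0%) were lower in every 12-day library, Col6a6 alone past the test, and 4 (9.52%) were higher, with a median log2 change of -0.24. The median was -0.12 without 4-day replicate 2 or without 12-day replicate 1 and -0.082 on the values as deposited, and 19 were lower without 12-day replicate 3. The basement membrane chain Col4a2 was at 18557, 21522 and 21167 steps at 4 days and at 8390, 12773 and 11222 steps at 12 days (log2 -0.94, adjusted p = 0.0843), the latter partly below the controls (10665, 17996 and 16484 steps). Collagen VI chains went apart: 5 of the 6 were lower in every 12-day library, while Col6a5 was higher, at 212, 275 and 326 steps against 609, 544 and 922 steps (log2 1.33, adjusted p = 0.0621). Among 34 genes of matrix remodelling 6 (17.6%) were lower in every 12-day library and 3 (8.82%) higher, with the metalloprotease Adam12 first by p (2865, 1911 and 3639 steps against 1064, 1465 and 936; adjusted p = 0.118).

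Genes of cell division were lower at 12 days without any passing the test. Of 65 mitosis genes, 23 (35.4%) were lower in every 12-day library and none was higher; 64 had a negative log2 change, with a median of -0.70 (-0.77 without 12-day replicate 3, with 30 lower, and -0.42 without 4-day replicate 3). Ect2, a factor of cytokinesis, was at 327, 506 and 629 steps at 4 days and at 226, 235 and 243 steps at 12 days (log2 -1.0, adjusted p = 0.0997). Espl1, separase, was at 1469, 1599 and 2200 steps against 637, 1002 and 983 (adjusted p = 0.096), and the centromeric histone Cenpa at 948, 1105 and 1505 against 484, 650 and 790 (adjusted p = 0.122). The proliferation marker Mki67 overlapped (4824, 8970 and 13780 steps against 3887, 5712 and 4524; adjusted p = 0.314), and so did Ccnb1, cyclin B1 (388, 719 and 956 steps against 297, 459 and 494; adjusted p = 0.36).

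The 4-day libraries differed widely in these genes. The mitosis score was 8.48, 9.15 and 9.53 in the 4-day replicates 1 to 3 and 8.13, 8.52 and 8.49 at 12 days, against 7.83 to 8.74 in controls and 9.11 to 9.31 at 10 days. Replication-dependent histones, made in S phase, had a median log2 change of -0.75 over 60 genes (-0.49 without 4-day replicate 3 and -0.40 without 12-day replicate 1), of which 7 (11.7%) were lower in every 12-day library. DNA replication genes were closer to the rest, with 2 of 56 (3.57%) lower in every 12-day library and a median of -0.20 that ranged from -0.41 (without 4-day replicate 1) to -0.077 (without 4-day replicate 3) when a library was left out. Of 45 genes of homologous recombination and the Fanconi pathway 3 (6.67%) were lower in every 12-day library, under the background share.

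Inhibitors of cyclin-dependent kinases went in both directions. Cdkn2b, p15, which halts the cycle in G1, rose from 175, 191 and 166 to 340, 286 and 321 steps (1.77-fold, log2 0.83, SE 0.11, adjusted p = 0.0183). The 4-day libraries were below the controls (303, 315 and 289 steps), the 12-day libraries were about at their level and the 10-day libraries were above it (387, 419 and 409 steps). The Cdkn2b call held in 1 of the 6 fits, and without 12-day replicate 3 the adjusted p was 0.104. Of the 8 measured inhibitors, Cdkn2a was also higher in every 12-day library (7, 8 and 11 steps against 12, 19 and 38), and 3 were lower: Cdkn3, Cdkn2d and Cdkn2c (1111, 1213 and 1554 steps against 760, 697 and 672; adjusted p = 0.0766).

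The p53 pathway showed no called gene. Trp53 overlapped between the times (1461, 1401 and 1460 steps against 1086, 1552 and 1654), as did its targets Cdkn1a, p21 (2872, 2661 and 3035 against 2441, 3711 and 4328), and Mdm2 (1274, 1436 and 1368 against 1587, 1371 and 1518). Of 47 measured targets 7 (14.9%) were higher in every 12-day library and 2 (4.26%) lower, with a median log2 change of 0.21 (0.12 without 12-day replicate 3). Trp53inp1 was at 1397, 1980 and 1510 steps against 2391, 2322 and 2259 (log2 0.53, adjusted p = 0.163).

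**Figure D4:**
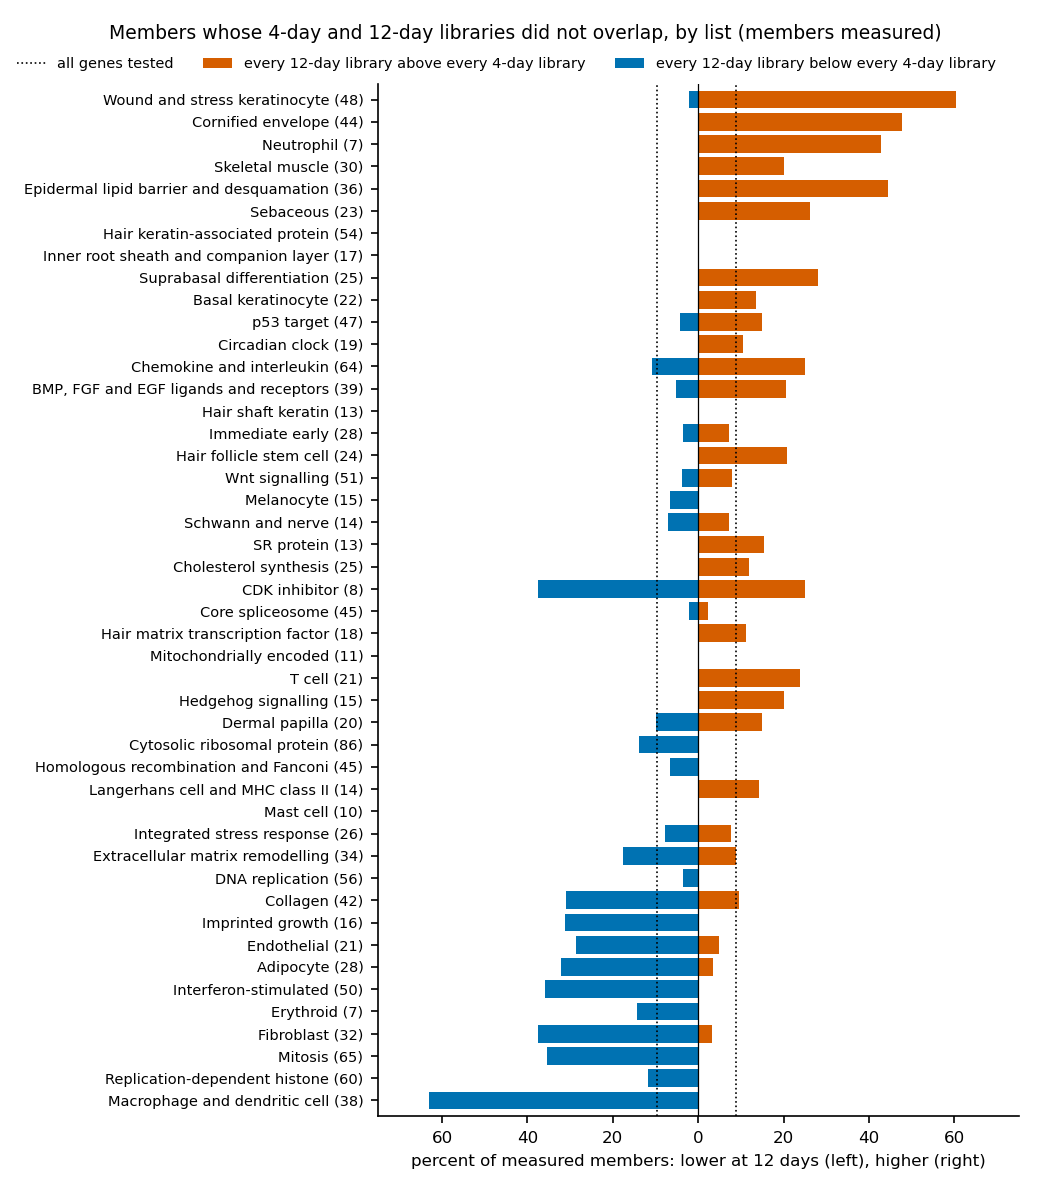
Share of measured members of each list (x axis, percent) with every 12-day library below every 4-day library (blue, left) or above (orange, right); the number measured is in parentheses and the dotted lines mark the shares over all genes tested (9.55% and 8.93%). Macrophage markers reach 63.2% on the left and wound and stress genes 60.4% on the right.

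Transcripts lower in controls than at 4 days were among the calls that held when a library was left out. Dnah17, which encodes a dynein heavy chain of motile cilia and sperm tails, rose from 93, 105 and 123 to 409, 604 and 633 steps (5.03-fold, log2 2.33, SE 0.21, adjusted p = 0.00373). The controls held 51, 45 and 56 steps, below every 4-day library, and the 10-day libraries held 439, 473 and 313 steps. The noncoding RNA 4930428N03Rik rose from 19, 17 and 26 to 93, 104 and 135 steps (5.17-fold, log2 2.37, SE 0.23, adjusted p = 0.00373). It was at 1 step in all 3 controls and at 83, 93 and 73 steps at 10 days. Both passed in all 6 fits that left out a library, with adjusted p values of up to 0.0366.

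4931403M11Rik rose from 20, 31 and 27 to 100, 161 and 189 steps (5.49-fold, log2 2.46, adjusted p = 0.00849) and was likewise at 1 step in all 3 controls. Its call held in 4 of the 6 fits. Lrit3, a leucine-rich repeat membrane protein known from the retina, was at 1, 4 and 1 steps at 4 days and at 20, 25 and 35 steps at 12 days (log2 3.31, adjusted p = 0.0444). Rrh, a retinal opsin homologue next to Lrit3 on chromosome 3 (129804408 to 129822587, beside 129787881 to 129804030), rose from 30, 49 and 45 to 120, 151 and 139 steps (3.31-fold, adjusted p = 0.0307). Controls held 21 to 27 steps of Rrh and 1 to 3 steps of Lrit3, and the 10-day libraries held 98 to 184 and 13 to 48 steps. Both lost their call in each of the 6 fits.

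Other rising genes were low throughout. Ppp1r1c, an inhibitor of protein phosphatase 1, rose from 7, 10 and 6 to 38, 49 and 48 steps (5.37-fold, adjusted p = 0.0307). The olfactory receptor pseudogene Olfr334-ps1 rose from 5, 5 and 3 to 23, 50 and 37 steps (adjusted p = 0.0204), and the noncoding RNA 2810407A14Rik from 11, 7 and 10 to 46, 65 and 112 steps (adjusted p = 0.0204). AI481877 rose from 8, 17 and 9 to 52, 47 and 62 steps (adjusted p = 0.0206). All 4 were at their lowest in controls or at 4 days and in between at 10 days, and none of these calls held in more than 1 of the 6 fits.

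A few genes stood out at 12 days alone. Gm13713, a noncoding RNA, was at 14, 15 and 18 steps at 4 days, at 16, 16 and 15 steps at 10 days and at 54, 53 and 56 steps at 12 days (3.34-fold from 4 to 12 days, adjusted p = 0.00849; 0.0504 without 12-day replicate 3). Gpc5, a heparan sulphate proteoglycan of the cell surface, was at 8, 6 and 7 steps at 4 days, at 4 steps in each library at 10 days and at 25, 24 and 23 steps at 12 days (3.14-fold, adjusted p = 0.0183). The controls of both were low (11, 10 and 8 steps for Gm13713, 8, 9 and 7 steps for Gpc5), so the 12-day group lay above every other library. The Gm13713 call held in 3 of the 6 fits and the Gpc5 call in 1.

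For the remaining calls described here the 4-day libraries were below the controls, except that Spink1 met them at 5 steps. Tmem56, a membrane protein, rose from 919, 774 and 833 to 1866, 1640 and 2008 steps (2.18-fold, log2 1.12, SE 0.14, adjusted p = 0.0183), with controls between (1500, 1130 and 1262 steps). Arhgef33, a putative guanine nucleotide exchange factor, was at 6, 4 and 5 steps at 4 days and at 16, 14 and 14 steps at 12 days, with controls at 12, 15 and 14 steps (adjusted p = 0.0424). Spink1, a trypsin inhibitor, rose from 2, 4 and 5 to 17, 21 and 22 steps (4.66-fold, adjusted p = 0.0183), and the noncoding RNA 4930447F24Rik from 10, 11 and 12 to 36, 37 and 45 steps (3.35-fold, adjusted p = 0.0183). The sources used here do not say whether the counting used strand, so reads of a transcript and of a partner on the other strand may be mixed. Without 12-day replicate 3 these 4 had adjusted p values of 0.0942, 0.141, 0.104 and 0.104.

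Few splicing genes were separated by time. Of 13 SR protein genes 2 (15.4%) were higher in every 12-day library, Srsf5 (7230, 6887 and 6347 steps against 9888, 7312 and 7759) and Srsf6 (2817, 3144 and 3015 against 3342, 3155 and 3248), and none passed. Of 45 core spliceosome genes 1 was higher and 1 lower in every 12-day library (2.22% each), with a median log2 change of -0.046 that was 0.12 on the values as deposited and 0.022 with equal library totals. Without 12-day replicate 3, 2 were higher and 4 lower. Cytosolic ribosomal protein genes had 12 of 86 (13.95%) lower in every 12-day library and a median of -0.13, which was -0.086 without 12-day replicate 3, with 3 higher, -0.054 without 4-day replicate 3 and 0.034 on the values as deposited.

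Genes of the hair shaft and its sheath overlapped between the times. The 13 hair shaft keratins, 17 inner root sheath genes and 54 hair keratin-associated protein genes held no member with separated libraries. Their medians turned sign with single libraries left out: the hair shaft median was 0.14, with a range of -1.31 to 2.03, the inner root sheath median 0.30 (-0.75 to 1.92) and that of the hair keratin-associated proteins 0.30 (-1.21 to 1.68). Hair shaft scores were 4.33 to 7.55 at 4 days, 3.06 to 9.13 at 12 days, 5.85 to 11.4 in controls and 15.4 to 15.7 at 10 days. Krt84 had the smallest p of the hair shaft list (8, 28 and 48 steps against 21, 277 and 48; adjusted p = 0.509). The values at 10 days are therefore given beside the 2 times without a test. Of 18 transcription factors of the hair matrix 2 (11.1%), Foxq1 (331, 316 and 332 steps against 391, 416 and 442) and Prdm1 (854, 948 and 788 against 969, 1200 and 1409), were higher in every 12-day library, and none was lower or passed. Of the 18, 11 had a negative log2 change. Their median was -0.060 (-0.21 without 12-day replicate 3, 0.46 without 12-day replicate 1). Hair follicle stem cell genes included 5 of 24 (20.8%) higher in every 12-day library, led by Plet1 (506, 633 and 699 steps against 1128, 1099 and 1341; adjusted p = 0.0811). The stem cell median was 0.062, which turned to -0.066 without 12-day replicate 3, and 8 of the 24 had a negative log2 change.

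Some markers of muscle, fat, vessels and sebaceous glands were also separated by time, and only Lyve1 among them passed the test. Of 30 skeletal muscle genes, all had a positive log2 change and 6 (20.0%) were higher in every 12-day library, with a median of 0.55 (0.25 without 4-day replicate 3); scores were 13.0 to 13.9 at 4 days, 13.8 to 14.2 at 12 days and 13.5 to 14.5 in controls. Of 28 adipocyte genes 9 (32.1%) were lower in every 12-day library and 1 (3.57%) higher, led by Lpl, lipoprotein lipase (12088, 16012 and 14137 steps against 6701, 5235 and 3775; adjusted p = 0.0781). The adipocyte median was -0.37, -0.60 without 12-day replicate 2 and -0.12 without 12-day replicate 3 (2 higher), which had the lowest adipocyte score of its group. Of 21 endothelial genes 6 (28.6%) were lower in every 12-day library, 10 without 12-day replicate 3, and 1 (4.76%) was higher. Lyve1, counted on this list too, was the 1 endothelial gene that passed, and Cdh5, the vessel cadherin, was at 2316, 1952 and 2251 against 1858, 1450 and 1554 steps (adjusted p = 0.152). Of 23 sebaceous gland genes 6 (26.1%) were higher in every 12-day library, 10 without 12-day replicate 3, led by Defb6 (611, 836 and 680 steps against 1852, 1230 and 1210; adjusted p = 0.0811).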

How the data were processed

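Whole-skin RNA-seq of 12 mice of the knockout set was used. The deposited signal is, per the name of its table, a normalised count per gene; the submitters' processing notes name STAR, featureCounts and DESeq2 without version, role or genome build. Each column was divided by its smallest positive value, of which every value was a whole multiple (tolerance 0.0001). These steps were not taken as reads, because undetected genes sit at 1 step and 0 to 40 genes per library at 0, so no count test was run. The 3 other tables of the series were not used.

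Genes with a mean of at least 10 were kept. log2(steps + 1) of all 12 libraries was fitted with limma 3.58.1 in R 4.3.3, using a mean-variance trend and 4 group means. The contrast of 12 minus 4 days was tested two-sided, adjusted over 19450 genes by the Benjamini-Hochberg method, at a threshold of 0.05. Folds are on the log2(steps + 1) scale and understate changes of low genes. The script was tested on simulated data. Of the 46 lists, members counted as separated when their 3 libraries at one time lay all above or all below the 3 at the other.

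Replicate numbers are shared by the groups. Deviations from the group mean correlated at 0.38, 0.31 and 0.02 for the numbers 1, 2 and 3. Within a group the deviations cancel out, so these correlations constrain one another and cannot show or exclude pairing. The numbers were not taken to pair mice.

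The text names Srsf2, the 12 largest rises and falls that passed, averaged 50 or more, did not overlap and have a full gene name, up to 4 members per list with the smallest p, and 12 genes always; 1 of these and 1 called gene are not reported here. The other called genes, the genes used to check libraries and further list members, families and observations were chosen after their values were seen. The comparison, members and lists were chosen with earlier results of these data known. Positions are from GENCODE M21 (GRCm38); 49326 of 49585 identifiers matched without version, and 4931403M11Rik has no position there. Alternatives were other scalings, the pseudocount, filters, the trend, the groups fitted and each library left out. Python 3.11.15, pandas 2.3.3, numpy 2.4.6, data.table (version 1.17.8) and matplotlib 3.10.9 were used.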

Additional observations from a re-analysis of the deposited data

How the results depend on the processing

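With a median-of-ratios scaling all counts of calls were as reported. Against 28 calls in all (21 higher, 7 lower), equal library totals gave 61 (52 higher), a pseudocount of 5 gave 60 (46 and 14), no filter 53 (39 and 14), a mean of 50 or more 15 (9 higher), and no mean-variance trend 52 (41 and 11). The values as deposited gave 3 lower calls. Without 1 library at a time there were 3 to 26 calls, 2 to 20 higher and 1 to 6 lower. A fit of only the 2 groups made 20 calls, 12 of them among the 28. The replicate numbers were not taken as pairs. With the replicate number as a block the fit of the 2 groups made 525 calls (273 higher, 252 lower), 26 of them among the 28. The deviations of 12-day replicate 3 correlated best with those of 4-day replicate 2 (0.08), so not every library correlated best with its own number. Such correlations cannot show or exclude pairing.

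Among the genes named here, signs that turned on the values as deposited were those of Srsf2 (0.038), Krt10 (0.12) and Trp53 (0.13), and with equal totals Krt10 (0.027) and Trp53 (0.035). With 1 library left out, Krt1 ranged from -0.21 to 0.24, Krt10 from -0.23 to 0.12, Lor from -0.10 to 0.57 and Trp53 from -0.15 to 0.15. Of the 46 list medians, 17 turned sign with some library left out, the largest of them 0.30, 9 on the values as deposited and 2 with equal totals. The cause was not tested. With 3 mice a time, spread between animals limits what can pass, and depth limits genes of a few steps.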

Other observations

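Some genes differed more between animals of one time than between the times. The pseudogene H2-Ea-ps was at 5, 5 and 369 steps at 4 days and at 13609, 8 and 7631 steps at 12 days, with 0, 0 and 4 steps in controls and 259, 0 and 0 steps at 10 days. Skint3, a gene of the epidermal Skint family, was at 4, 1048 and 334 steps at 4 days and at 2117, 2481 and 2481 steps at 12 days (log2 4.29, adjusted p = 0.211 by limma). The ribosomal protein pseudogene Rps2-ps10 was at 15, 10 and 182 steps at 4 days and at 6115, 17 and 2557 steps at 12 days. These 3 genes were chosen after their values were seen, and what sets them apart was not tested.

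Clock genes differed most in 1 library. Nr1d2, a repressor of the circadian clock, was at 1344, 1047 and 1033 steps at 4 days and at 3055, 1548 and 1184 steps at 12 days, with 936, 1042 and 630 steps in controls (log2 0.65, adjusted p = 0.413 by limma). Of 19 clock genes 2 (10.5%) were higher in every 12-day library and none was lower, and without 12-day replicate 3 the counts were 7 and 1, with the median log2 change going from 0.19 to 0.42. The 2 were Bhlhe40 (1120, 1114 and 1139 steps against 1717, 1724 and 2190; log2 0.73, adjusted p = 0.056) and Bhlhe41 (287, 362 and 365 steps against 552, 560 and 380).

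Of 16 imprinted genes of growth, 5 (31.3%) were lower in every 12-day library and none was higher, with a median log2 change of -0.29. Without 12-day replicate 3 the median was -0.10, with 5 lower and 1 higher. The noncoding RNA Meg3 was at 3769, 3231 and 5049 steps at 4 days and at 1665, 1567 and 2670 steps at 12 days (log2 -1.05, adjusted p = 0.0911 by limma), with 890, 1021 and 972 steps in controls. Gdf15, a stress-induced cytokine listed with the p53 targets and the integrated stress response, was at 105, 61 and 129 steps at 4 days and at 50, 53 and 20 steps at 12 days (log2 -1.29, adjusted p = 0.235).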
